A study of Homo sapiens with 6 samples.

Results

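The 54 genes described here encode the machinery that copies DNA in S phase, from the proteins that mark origins to those that join the finished strands. They were chosen by name as a list of known replication factors and S-phase regulators, with earlier results of these data known. All 54 were found among the 29476 genes of the deposited table. Each was read in A549 cells, an established human lung adenocarcinoma line grown in RPMI-1640 medium and transfected with a lipid reagent. The control group (si-NC) received a negative control siRNA and the other group (si-NORAD) an siRNA against NORAD, a long noncoding RNA. Each group holds 3 libraries, numbered 4, 5 and 6, from ribosome-depleted total RNA, and values below follow that order. Separate cultures are not named in the labels. The p-values therefore reflect the scatter among these 6 libraries alone, and that scatter may be technical. No time after transfection, siRNA sequence or growth state of the cells is stated in the labels.

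Replication is licensed in G1, when the origin recognition complex, CDC6 and CDT1 load the MCM2 to MCM7 ring onto DNA. At the start of S phase the kinase CDC7 with DBF4, together with cyclin-dependent kinases, turns that ring into an active helicase by adding CDC45 and the GINS complex. Polymerases alpha, delta and epsilon then copy the strands, with delta and epsilon held by the PCNA clamp that the RFC complex loads. Most of these genes are transcribed by E2F factors around the G1/S transition, so their RNA is often read as a sign of how many cells in a culture are cycling. NORAD is a cytoplasmic noncoding RNA whose loss has been tied to faulty chromosome segregation and replication stress.

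Library facts that touch every value come first. Total counts ran from 19332334 to 32760606 per library. NORAD itself stood at 550, 461 and 423 CPM (counts scaled to a common library size) in si-NC and at 359, 372 and 400 CPM in si-NORAD, a fitted level 21.1% lower that did not pass the test over all genes (adjusted p = 0.196). One control library, si-NC 4, stood nearer to the si-NORAD mean than to that of the other controls in 74.6% of the 15515 tested genes. The counts of si-NC 4 differed from those of each si-NORAD library by a chi-square per degree of freedom of 5.36 to 6.06, and from si-NC 5 and si-NC 6 by 25.69 and 51.48. Within si-NORAD the pairs gave 2.36 to 2.52. Epithelial markers and genes abundant in A549 were all tested, and their summed levels were high, at 3679 to 6170 and 6595 to 8519 CPM in si-NC. In si-NORAD these sums were 4034 to 4098 and 7156 to 7366 CPM. The extraction text in the labels speaks of retina, whose 8 listed markers in the table summed to 2.71 to 3.95 CPM in si-NC and 3.38 to 3.85 CPM in si-NORAD, with 5 of them at 3 counts or fewer in each library. Markers of leukocytes, fibroblasts and endothelium summed to 6.28 to 11, 7.14 to 10.2 and 0.0963 to 0.355 CPM in si-NC and to 5.08 to 6.59, 10.2 to 10.8 and 0.0507 to 0.27 CPM in si-NORAD.

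No replication gene passed the test between si-NORAD and si-NC, but most had lower values in si-NORAD by a small amount. With edgeR's quasi-likelihood test and Benjamini-Hochberg adjustment over all genes, 0 of 54 passed at an adjusted p under 0.05, where 0.00645% of all tested genes did. The log2 fold change (si-NORAD over si-NC) was below 0 for 45 of 54 (83.3%), against 49.1% of all tested genes. The median was -0.11, against 0.01 over all tested genes. On FPKM, with pseudocounts of 1 and 0.1, the medians were -0.04 and -0.05, against 0.04 and 0.06 over all genes. In both fits 37 members were below 0 (68.5%), against 41.4% and 41.2% of all genes. At an unadjusted p under 0.05, 14 members were lower (25.9%, against 12.1% of all tested genes) and 2 were higher (3.7%, against 9.51%). Every si-NORAD library lay below every si-NC library for 14 members, against 12.7% of all genes, and above for 3, where the share of all genes was also 12.7%. The 95% confidence intervals of all 54 lay within a 2-fold change in either direction, and 46 lay within 1.5-fold.

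**Figure D1:**
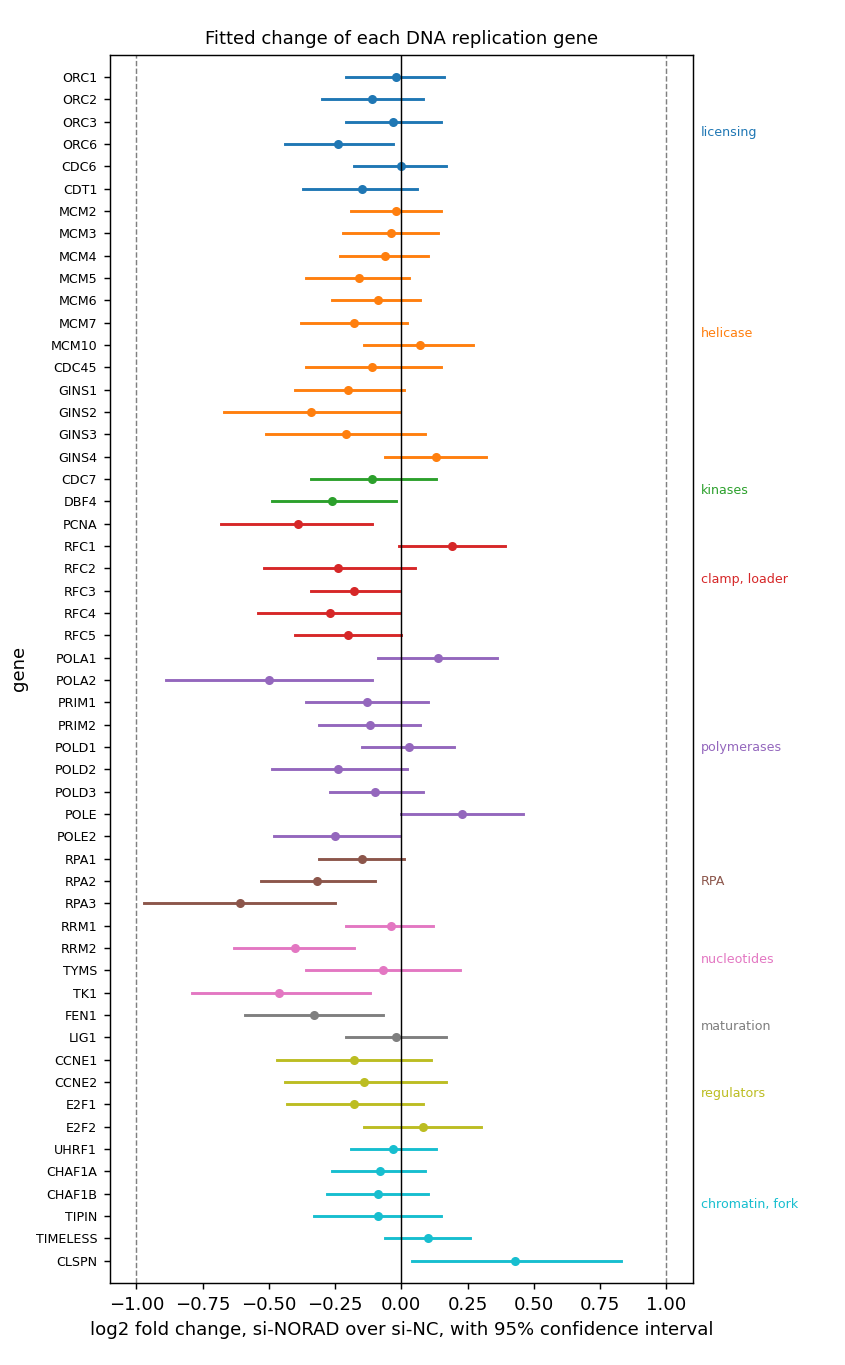
Fitted log2 fold change of each of the 54 replication genes (si-NORAD over si-NC, horizontal axis) with its 95% confidence interval, coloured by role; dashed lines mark a 2-fold change. Most points lie left of 0, 16 intervals leave out 0, and none reaches a dashed line.

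The call depended on the libraries and the tool. DESeq2 called 2 members, RPA3 and RRM2, both lower, where it called 2.95% of 10618 genes as lower and 1.05% as higher. When edgeR ran on all genes with no low-count filter it called 9 members, 8 lower and 1 higher, against 3.57% and 3% of all genes in those directions. Among the 15515 genes that pass the filter, the same fit called 6.75% as lower and 5.59% as higher, 12.3% in all, against 16.7% of members. Leaving out si-NC 4 gave 28 called members, 24 lower and 4 higher, in a fit that called 20.3% of all 15916 genes as lower and 19% as higher. Leaving out any other library gave 0 called members, in fits that called 0 or 1 of all tested genes. In a fit with si-NC 4 as the sole control, leaving out the other 2, 35 of 54 members had lower values and the median log2 fold change was -0.04. Of the 15511 tested genes with a value in that fit, 7729 had lower values, and their median was 0.00.

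The libraries themselves show where the difference lies. The summed level of the 54 genes was 4593, 5147 and 5247 CPM in si-NC 4, 5 and 6 and 4479, 4543 and 4538 CPM in the si-NORAD libraries. The group means were 4996 ± 352 and 4520 ± 35.5 CPM (SD, n = 3 each). Control libraries 5 and 6 were high, and si-NC 4 lay just above the highest si-NORAD library. Against the si-NORAD mean, the median member differed by 0.17 (log2) in controls 5 and 6 together and by 0.03 in si-NC 4, both above si-NORAD. For 41 of the 54 genes si-NC 4 lay nearer to si-NORAD than to the other controls (75.9%, against the 74.6% of all tested genes given above). The SD of log2 CPM was larger among the si-NC than among the si-NORAD libraries for 48 members (88.9%, against 80.2% of all tested genes), with medians of 0.14 and 0.05. In bulk RNA, fewer cells in S phase and less RNA per cell cannot be told apart.

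**Figure D2:**
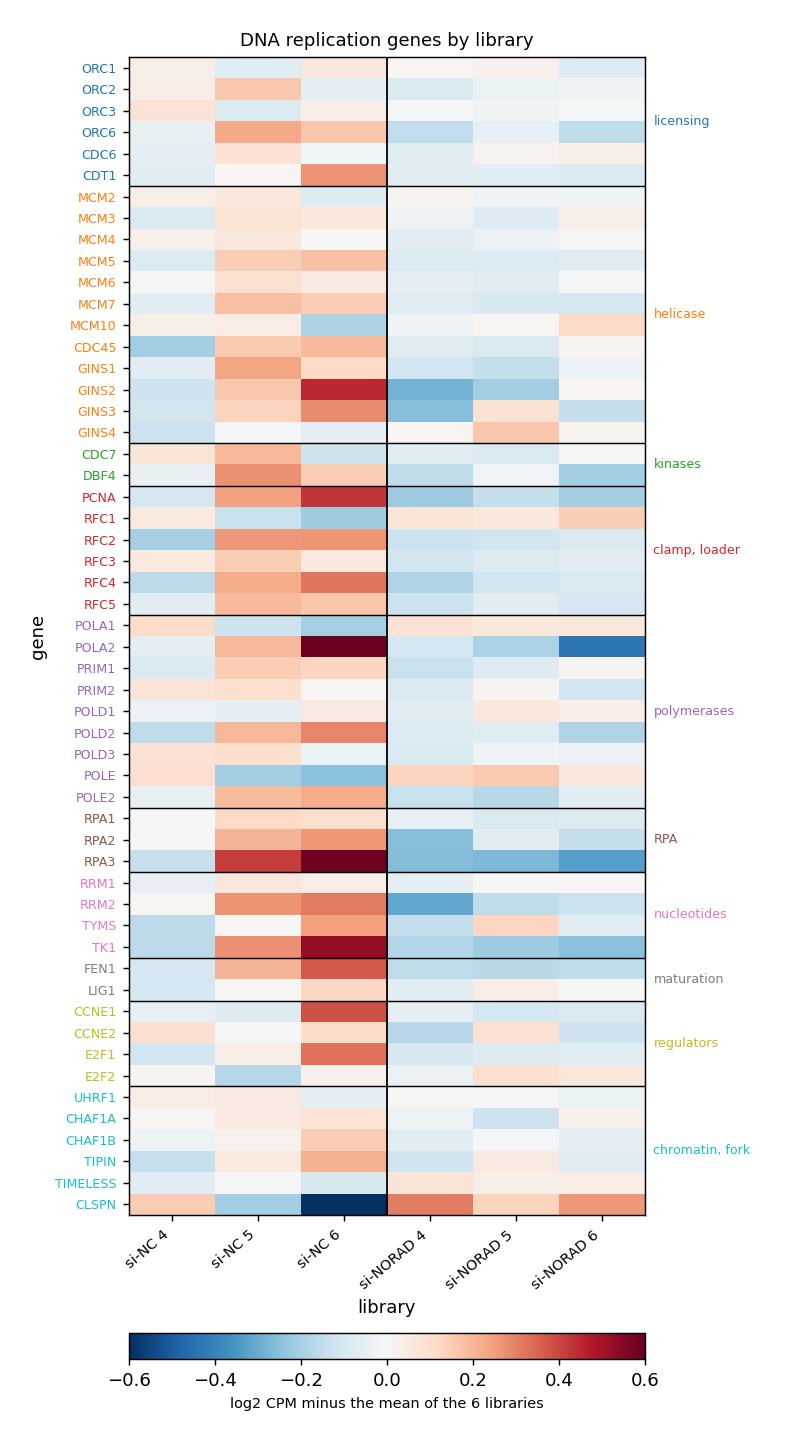
Log2 CPM of each replication gene (rows, grouped by role) in each library (columns), relative to that gene's mean over the 6 libraries; the colour scale ends at 0.6 in both directions. Red cells gather in si-NC 5 and si-NC 6, while si-NC 4 is pale or blue like the si-NORAD libraries, and CLSPN, POLE and RFC1 show the opposite pattern.

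Promoters were searched for motifs of E2F and other cell-cycle factors. The genes were not chosen by motif, but most are known to be transcribed by E2F factors. A high share of E2F motifs therefore follows from the choice of genes. The E2F motifs TTTCGCGC, TTTGGCGC, TTTCCCGC and TTTGCCGC, searched on both strands from 250 bases before to 50 after the RefSeq start (GRCh38.p14), were present in 22 of the 47 members with a promoter entry (46.8%). Over the 10759 tested genes with an entry the share was 5.3%, and over all 27305 promoters 3.33%. CCAAT, the core of the NF-Y site, which can overlap an E2F match by its first letters, was in 28 of 47 (59.6%, against 36.2% of tested genes). The CHR motifs TTTGAA and TTCGAA, known from genes of G2 and mitosis, were in 3 of 47 (6.38%, against 11%). Members with and without an E2F match had median log2 fold changes of -0.08 and -0.12, with 18 of 22 and 21 of 25 below 0. The windows below, with the match in capitals, are those of PCNA, POLA2 and GINS2, whose log2 fold changes were below 0, of POLE and CLSPN, whose values were above 0, and of E2F1, itself a factor that binds this motif. They show that genes of either sign hold the letters close to the start.
PCNA: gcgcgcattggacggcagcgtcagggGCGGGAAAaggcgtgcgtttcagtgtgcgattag
POLA2: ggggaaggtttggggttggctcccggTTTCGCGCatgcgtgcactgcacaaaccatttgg
GINS2: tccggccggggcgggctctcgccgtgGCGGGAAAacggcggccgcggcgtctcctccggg
E2F1: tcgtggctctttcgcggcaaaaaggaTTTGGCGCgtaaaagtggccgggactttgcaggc
POLE: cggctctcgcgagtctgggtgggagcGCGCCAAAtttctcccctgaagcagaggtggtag
CLSPN: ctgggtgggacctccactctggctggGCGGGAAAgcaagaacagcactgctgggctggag
These lie at chr20:5126648-5126707 (minus strand) for PCNA, chr11:65261883-65261942 (plus) for POLA2, chr16:85688952-85689011 (minus) for GINS2, chr20:33686372-33686431 (minus) for E2F1, chr12:132687327-132687386 (minus) for POLE and chr1:35769950-35770009 (minus) for CLSPN. Counted from the RefSeq start, the matches in capitals begin at positions -59, -53, -31, -20, -18 and -5. The E2F1 window also holds a match to TTTGCCGC on the reverse strand at position -33, left in lower case.

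Origin licensing genes differed little. Of 6, ORC6 alone had an unadjusted p under 0.05, and the median log2 fold change was -0.07, with 6 of 6 below 0 here but 3 of 6 when FPKM (counts scaled by gene length and library size) set the scale. ORC6, the small subunit of the origin recognition complex, stood at 52.8, 63.9 and 61.2 CPM in si-NC and at 49.2, 52.7 and 49.1 CPM in si-NORAD. Its groups did not overlap, although si-NC 4 and si-NORAD 5 almost touched (log2 fold change -0.24, SE 0.09, adjusted p = 0.207). CDT1, the loader of the MCM ring that is destroyed once S phase begins, stood at 78.7, 82.7 and 99.1 CPM in si-NC. In si-NORAD it was 78.4, 78.3 and 77.4 CPM, so that si-NC 6 alone was clearly high (log2 fold change -0.15, SE 0.10, adjusted p = 0.356). CDC6, the ATPase that works with CDT1, gave a log2 fold change of -0.00 (95% interval -0.18 to 0.17). ORC1, ORC2 and ORC3, core subunits of the complex, gave -0.02, -0.11 and -0.03, and their groups overlapped.

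The replicative helicase had a median log2 fold change of -0.10 over 12 genes, with 10 below 0. This count was 8 when FPKM set the scale. MCM7, a subunit of the ring and the member with the second highest FPKM after PCNA, stood at 446, 530 and 519 CPM in si-NC and at 444, 438 and 438 CPM in si-NORAD. The si-NORAD libraries were close to one another and si-NC 4 lay just above them, well below the other controls (log2 fold change -0.18, SE 0.09, adjusted p = 0.266). The other subunits of the ring, MCM2, MCM3, MCM4, MCM5 and MCM6, gave log2 fold changes of -0.02, -0.04, -0.06, -0.16 and -0.09, with all 5 groups overlapping. GINS2, a subunit of the GINS complex that ties the helicase to polymerase epsilon, stood at 31.4, 38.3 and 46.8 CPM in si-NC and at 28.1, 29.6 and 34.5 CPM in si-NORAD. Its groups overlapped, with si-NORAD 6 above si-NC 4 (log2 fold change -0.34, SE 0.15, adjusted p = 0.225). Its partners GINS1 and GINS3 gave -0.20 and -0.21. GINS4 went the other way, at 34.5, 37.5 and 36.2 CPM in si-NC and 38.1, 42.4 and 38.3 CPM in si-NORAD, without overlap (log2 fold change 0.13, 95% interval -0.06 to 0.32). CDC45, the third part of the active helicase, gave -0.11, and its sign turned with si-NC 4 as sole control (0.16). MCM10, which helps the helicase to fire, gave 0.07.

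Both subunits of the CDC7 kinase, which phosphorylates the MCM ring to start S phase, had log2 fold changes below 0. DBF4, the regulatory subunit, stood at 28.4, 35.4 and 32.4 CPM in si-NC and 26.3, 28.9 and 25.4 CPM in si-NORAD. Here si-NC 4 lay inside the si-NORAD range (log2 fold change -0.26, SE 0.10, adjusted p = 0.217). CDC7, the catalytic subunit, stood at 24.9, 27.1 and 21.7 CPM in si-NC and at 22.6, 22.2 and 23.7 CPM in si-NORAD, with full overlap (log2 fold change -0.11, SE 0.10, adjusted p = 0.545).

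PCNA, the sliding clamp that holds polymerases on DNA, had the highest level of all members (mean 267 FPKM, above 99.3% of tested genes). It stood at 362, 462 and 524 CPM in si-NC and at 335, 353 and 338 CPM in si-NORAD, or 449 ± 81.9 and 342 ± 9.74 CPM (SD, n = 3 each). The groups did not overlap, si-NC 6 was highest, and si-NC 4 lay just above si-NORAD 5 (log2 fold change -0.39, SE 0.13, 95% interval -0.68 to -0.11, adjusted p = 0.196). Without si-NC 4 its log2 fold change was -0.53 (adjusted p = 3.46e-05), against -0.08 when si-NC 4 was the sole control. Adjusted p ran from 3.46e-05 to 0.516 over the 13 alternatives with a test. GENCODE 29 annotates 3 pseudogenes of PCNA, and reads shared with them could shift its count.

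The clamp loader is a ring of 5 RFC subunits, of which 4 had log2 fold changes below 0. RFC4 stood at 65.8, 85.7 and 91.8 CPM in si-NC and at 64.8, 67.8 and 68.8 CPM in si-NORAD, with si-NC 4 inside the si-NORAD range (log2 fold change -0.27, SE 0.12, adjusted p = 0.228). RFC5 stood at 55.5, 66.6 and 65.2 CPM in si-NC and at 53.2, 55.5 and 54.1 CPM in si-NORAD (log2 fold change -0.20, SE 0.09, adjusted p = 0.231). In RFC5 the controls 5 and 6 were again the high libraries, and si-NC 4 matched si-NORAD 5 to the digits shown. RFC3 differed in this respect, at 64.0, 68.3 and 64.0 CPM in si-NC and 57.0, 58.1 and 58.7 CPM in si-NORAD. All 3 of its control libraries were above all si-NORAD libraries by a similar margin, and its log2 fold change of -0.18 (SE 0.07, adjusted p = 0.22) was -0.14 against si-NC 4 alone. RFC2 gave -0.24, which turned to 0.09 in that fit. RFC1, the large subunit, was at 87.8, 76.9 and 72.8 CPM in si-NC and at 89.1, 88.0 and 93.5 CPM in si-NORAD. In RFC1 controls 5 and 6 were the low libraries (log2 fold change 0.19, 95% interval -0.01 to 0.39).

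Of the 9 polymerase and primase genes, 6 had log2 fold changes below 0, with a median of -0.12. POLE, the catalytic subunit of polymerase epsilon and the longest member, stood at 122, 98.6 and 95.7 CPM in si-NC and at 125, 127 and 119 CPM in si-NORAD. Controls 5 and 6 were low and si-NC 4 lay within the si-NORAD range (log2 fold change 0.23, SE 0.10, adjusted p = 0.231). The log2 fold change of POLE turned to -0.03 when the trend over gene length was removed. Its partner POLE2 stood at 15.2, 17.9 and 18.3 CPM in si-NC and 14.3, 14.0 and 15 CPM in si-NORAD, without overlap (log2 fold change -0.25, SE 0.10, adjusted p = 0.222). POLA2 is the accessory subunit of polymerase alpha, which with primase starts each new strand. It was at 8.62, 10.3 and 13.5 CPM in si-NC and at 8.33, 7.86 and 6.64 CPM in si-NORAD. The groups did not overlap, but the values of POLA2 within each group were spread widely (log2 fold change -0.50, SE 0.17, adjusted p = 0.199). POLA2 shares 2012 exonic bases with AP000944.2 on the same strand, which could affect its count. The catalytic subunit POLA1 gave 0.14 (95% interval -0.09 to 0.36), which turned to -0.04 against si-NC 4 alone, and the primase subunits PRIM1 and PRIM2 gave -0.13 and -0.12. For polymerase delta, POLD2 stood at 160, 204 and 218 CPM in si-NC and at 168, 169 and 157 CPM in si-NORAD. Controls 5 and 6 were high and si-NC 4 lay inside the si-NORAD range (log2 fold change -0.24, SE 0.11, adjusted p = 0.258). Against si-NC 4 alone the sign of POLD2 turned (0.05). The catalytic subunit POLD1 gave 0.03 and the accessory subunit POLD3 -0.10.

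RPA, the trimer that coats single-stranded DNA, was the role with the lowest median log2 fold change (-0.32), and the 3 subunits did not overlap between groups. RPA3, the smallest subunit, had the lowest log2 fold change of all members. It stood at 49.7, 73.1 and 82.1 CPM in si-NC and at 45.7, 45.4 and 43.5 CPM in si-NORAD, or 68.3 ± 16.7 and 44.9 ± 1.22 CPM (SD, n = 3 each). The si-NORAD libraries were close together, si-NC 4 was slightly above them, and controls 5 and 6 were far above (log2 fold change -0.61, SE 0.16, 95% interval -0.97 to -0.25, edgeR adjusted p = 0.196). DESeq2 called RPA3 (adjusted p = 0.0217), and over the 13 alternatives adjusted p ran from 4.35e-06 to 0.516. RPA2 was at 55.1, 63.2 and 65.9 CPM in si-NC and at 46.0, 52.4 and 49.8 CPM in si-NORAD (log2 fold change -0.32, SE 0.09, adjusted p = 0.196). It has 3 annotated pseudogenes, which could affect its count. RPA1, the large DNA-binding subunit, was at 176, 191 and 189 CPM in si-NC and at 170, 165 and 166 CPM in si-NORAD (-0.15, SE 0.07, adjusted p = 0.259). Against si-NC 4 alone RPA1, RPA2 and RPA3 kept log2 fold changes below 0, at -0.07, -0.17 and -0.15. RPA3 shares 118 exonic bases with UMAD1 on the opposite strand, which could affect its count if strand was not used in counting.

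Nucleotide supply genes were uneven. RRM2, the small subunit of ribonucleotide reductase that is made in S phase, stood at 72.3, 86.2 and 89.0 CPM in si-NC and at 57.6, 64.5 and 65.4 CPM in si-NORAD. Each si-NC library, si-NC 4 included, was above all si-NORAD libraries, and the means were 82.5 ± 8.99 and 62.5 ± 4.29 CPM (SD, n = 3 each). The log2 fold change was -0.40 (SE 0.10, 95% interval -0.63 to -0.18) with an unadjusted p of 0.00296, the lowest among members, and an edgeR adjusted p of 0.196. DESeq2 called RRM2 (adjusted p = 0.0266). Against si-NC 4 alone RRM2 still gave -0.22, and over the 13 alternatives adjusted p ran from 0.000139 to 0.516. The large subunit RRM1, which is steadier through the cell cycle, gave -0.04 (95% interval -0.21 to 0.12). The ratio of RRM2 to RRM1 in FPKM, which does not depend on library scaling, was 0.336, 0.37 and 0.388 in si-NC and 0.27, 0.292 and 0.293 in si-NORAD. This ratio, chosen after its values were seen as 1 of 15 between partners, did not overlap between groups. RRM2 shares 1077 exonic bases with AC007240.1 on the same strand and has 3 annotated pseudogenes, which could affect its count.

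TK1, the thymidine kinase of S phase, stood at 158, 213 and 254 CPM in si-NC and at 156, 152 and 148 CPM in si-NORAD. The si-NC values of TK1 ran from just above the highest si-NORAD library to far above it (log2 fold change -0.46, SE 0.15, 95% interval -0.79 to -0.12, adjusted p = 0.196). The value of TK1 against si-NC 4 alone was -0.06. TYMS, which makes thymidylate from deoxyuridylate, gave -0.07, and its groups overlapped. TYMS shares 967 exonic bases with ENOSF1 on the opposite strand, so its count is uncertain. FEN1, the nuclease that trims the flap of each Okazaki fragment, stood at 114, 141 and 158 CPM in si-NC and at 110, 109 and 110 CPM in si-NORAD. The si-NORAD values were nearly equal and all below si-NC 4, the lowest control (log2 fold change -0.33, SE 0.11, adjusted p = 0.199). LIG1, the ligase that seals the fragments, gave -0.02 (95% interval -0.21 to 0.17).

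The regulators of S-phase entry differed by less than their spread. E2F1, the transcription factor that drives many members, stood at 46.7, 52.0 and 63.5 CPM in si-NC and at 47.4, 48.0 and 48.1 CPM in si-NORAD. All si-NORAD values of E2F1 lay between si-NC 4 and si-NC 5 (log2 fold change -0.18, SE 0.11, adjusted p = 0.364), and its sign turned against si-NC 4 alone (0.03). CCNE1, cyclin E1, the partner of CDK2 at the G1/S transition, was at 22.3, 21.9 and 30.1 CPM in si-NC and at 22.2, 21.5 and 21.7 CPM in si-NORAD. For CCNE1 si-NC 6 alone was high (log2 fold change -0.18, SE 0.13, adjusted p = 0.409). CCNE2 gave -0.14 at the lowest level of all members (mean 1.11 FPKM), and it shares 1629 exonic bases with INTS8 on the opposite strand. E2F2 gave 0.08 (95% interval -0.14 to 0.30).

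Chromatin assembly and fork protection genes had the smallest median, -0.06. CLSPN, the checkpoint adaptor claspin that travels with the fork, had the highest log2 fold change of all members. It stood at 22.6, 17.6 and 13.0 CPM in si-NC and at 25.2, 22.3 and 24.4 CPM in si-NORAD, or 17.7 ± 4.82 and 24.0 ± 1.5 CPM (SD, n = 3 each). Controls 5 and 6 were low, and si-NC 4 lay inside the si-NORAD range (log2 fold change 0.43, SE 0.17, 95% interval 0.04 to 0.83, adjusted p = 0.212). CLSPN against si-NC 4 alone gave 0.09. UHRF1, which brings the maintenance DNA methyltransferase to new DNA, was at 163, 164 and 152 CPM in si-NC and at 159, 157 and 154 CPM in si-NORAD, with overlap (-0.03, SE 0.07, adjusted p = 0.816). The sign of UHRF1 turned when FPKM set the scale (0.03). TIMELESS, which holds polymerase and helicase together with TIPIN, stood at 127, 133 and 124 CPM in si-NC and 140, 136 and 137 CPM in si-NORAD. Its groups did not overlap (log2 fold change 0.10, 95% interval -0.06 to 0.26), whereas TIPIN gave -0.09. The histone chaperone subunits CHAF1A and CHAF1B gave -0.08 and -0.09.

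**Figure D3:**
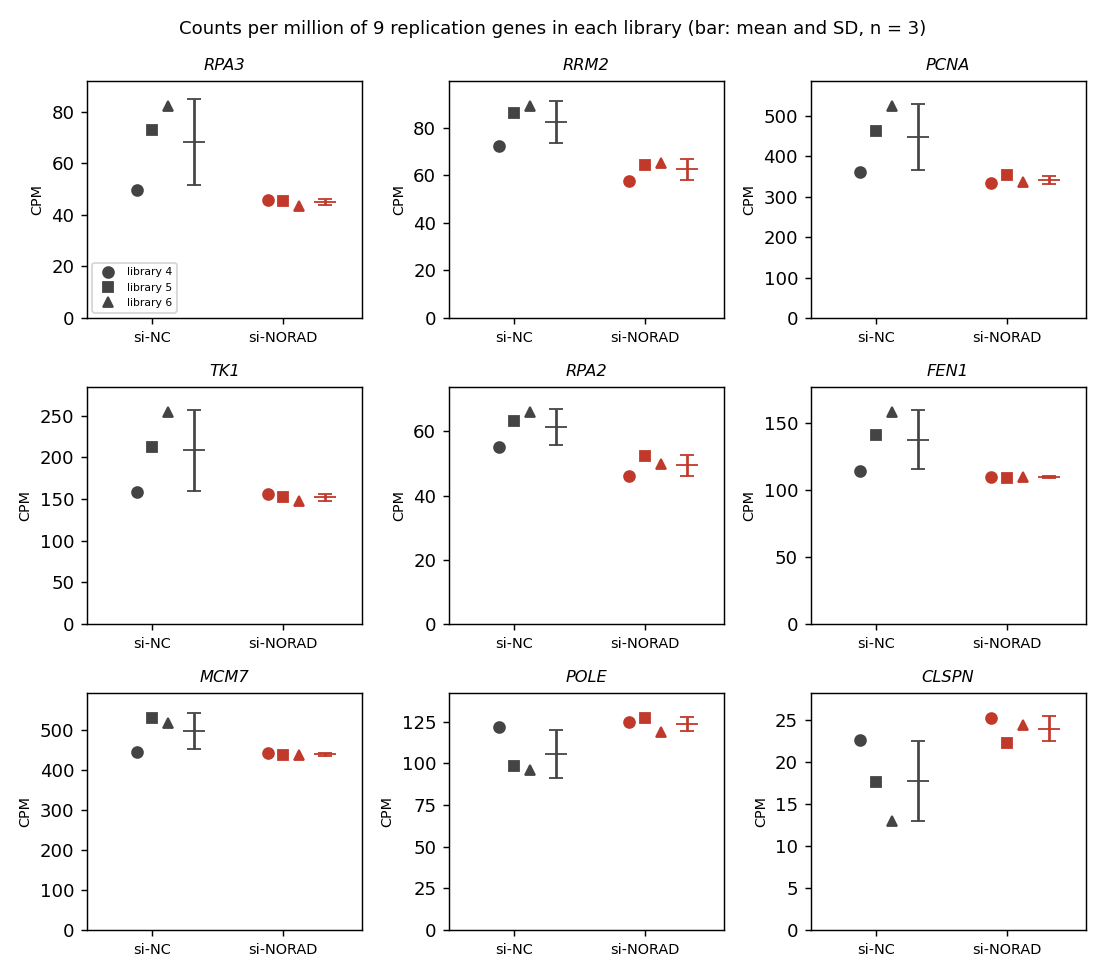
CPM (vertical axis, from 0) of 9 replication genes in each library, with the mean and SD of each group (n = 3) beside the points. In 7 genes si-NC 5 and si-NC 6 are the highest libraries, and in POLE and CLSPN they are the lowest.

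Gene length moved with these values. Lengths here are those implied by the deposited counts and FPKM. All 23 members under 4000 bases had values below 0, with a median log2 fold change of -0.18, while the 31 longer members had 22 below 0 and a median of -0.08. Over all tested genes the medians were -0.12 under 4000 bases (66.9% below 0) and 0.08 for the rest (36.3% below 0). Across the 54 genes, log2 length and log2 fold change had a Pearson r of 0.55 and a Spearman rho of 0.54, as a description of points that share the same 6 libraries. Over all tested genes these were 0.29 and 0.38. With the length trend removed from each library, 43 of 54 members (79.6%) had values below 0, against 8419 of the 15515 tested genes. The median was -0.10, against -0.02 over all genes, and r was 0.19. RPA3, POLA2, TK1, RRM2 and PCNA, the lowest members with all 6 libraries, then gave -0.54, -0.54, -0.34, -0.43 and -0.28. For values against si-NC 4 alone r was 0.05.

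**Figure D4:**
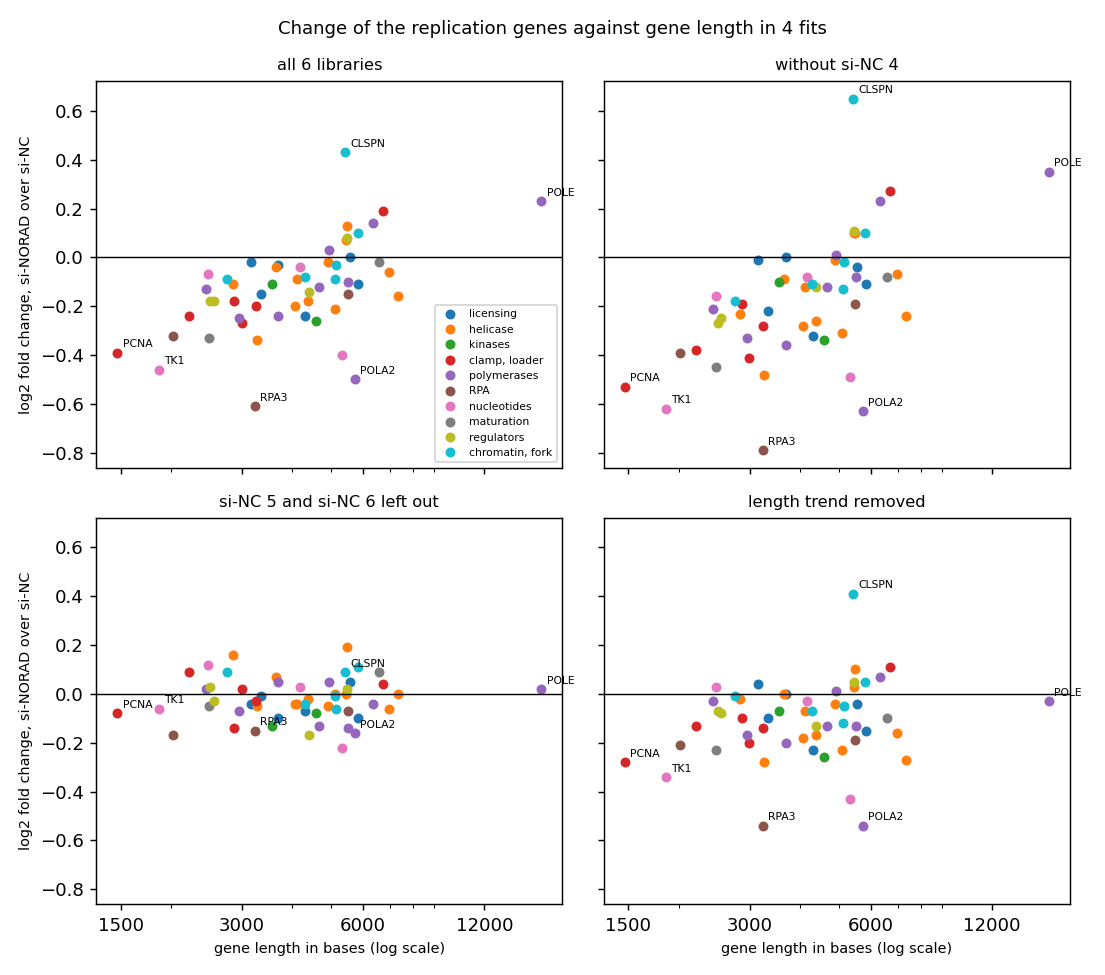
Log2 fold change of each replication gene (si-NORAD over si-NC, vertical axis) against gene length in bases (log scale) in 4 fits, coloured by role. With all 6 libraries the points under 4000 bases all lie below 0 and those above 0 are longer genes; with the length trend removed r is 0.19, and against si-NC 4 alone it is 0.05.

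The rest of the pathway was read in the same fit from lists of genes that are not members, also chosen with earlier results known. It had a median log2 fold change of -0.09 over 120 tested genes, 82 of them below 0. That is 68.3% below 0, against 49.1% of all tested genes. None of the 120 passed in edgeR. At an unadjusted p under 0.05, 24 were lower (20%, against 12.1% of all tested genes) and 2 were higher (1.67%, against 9.51%). DESeq2 called 2 of all 120 (1.67%), of which some had no adjusted p. It called 4% of the genes that had one, so these shares are not on the same base. Of 33 other replication factors 20 had values below 0 (median -0.06). ORC4, another origin recognition subunit, was at 34.5 ± 1.92 and 27.0 ± 1.63 CPM (SD, n = 3 each; log2 fold change -0.35, edgeR adjusted p = 0.196) and was called by DESeq2 (adjusted p = 0.0412). CHTF18, of the alternative clamp loader, was at 81.7 ± 11.8 and 106 ± 6.36 CPM (0.38, adjusted p = 0.196). Of 22 genes of S-phase entry 15 had values below 0 (median -0.10). CDKN1A, the p21 inhibitor of cyclin-dependent kinases, was at 321 ± 14.0 and 264 ± 9.95 CPM (-0.28, edgeR adjusted p = 0.196) and was called by DESeq2 (adjusted p = 0.0283). FBXO5, an inhibitor of the APC/C ubiquitin ligase, was at 39.1 ± 2.57 and 31.9 ± 1.1 CPM (-0.29, adjusted p = 0.196). These 4 genes were picked for the lowest p in their lists, and in all of them the groups did not overlap. Of the 120 genes, 30 were lower without overlap and 7 were higher, against 12.7% of all tested genes in each direction.

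Nucleotide synthesis genes outside the list had 25 of 29 values below 0, with a median of -0.11. ADSS, an enzyme of adenylate synthesis, gave -0.23 and DCK, deoxycytidine kinase, -0.34 (adjusted p = 0.196 for both). Of 10 genes of the S-phase checkpoint 7 were below 0 (median -0.07), with ATRIP, the partner of the ATR kinase, at -0.23 and ETAA1, an activator of ATR, at 0.18. Replication-dependent histone genes are transcribed in S phase and their RNA lacks a poly(A) tail, so ribosomal depletion can keep it. Among 59 such deposited genes, 26 were tested, 15 had values below 0 (57.7%) and the median was -0.10. HIST2H2AC and HIST1H1C had the lowest p, at log2 fold changes of -0.64 and -0.30 (adjusted p = 0.203 and 0.216), and both overlapped between groups. Many of the 26 had few counts. HIST2H2AC had 26 to 62 per library, HIST1H2AI 5 to 18 and HIST1H1E 4 to 20. HIST1H1C was the highest of the 26, with control and si-NORAD means of 38.5 and 31.2 CPM. The median SD of log2 CPM over the 26 was 0.27 among controls and 0.16 among si-NORAD libraries. With that scatter, the median of -0.10 cannot show whether S-phase histone RNA differed.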

How the data were processed

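RNA sequencing of 6 A549 libraries was used. The tools were HISAT2, HTSeq 0.6.1 and FastQC with build GRCh38, per the submitters' processing notes. For annotation release and strand setting, nothing is given in the sources used here. The deposited table holds raw whole-number counts per gene, made by the authors without normalization, and a set of FPKM values that the authors derived. The ratio of count to FPKM implied a single length per gene for 100% of values within 0.1%. Columns matched the titles.

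Members and lists were chosen with earlier results of these data known. The test was edgeR 4.0.16 (R 4.3.3) on the counts of all 15515 genes passing filterByExpr, with TMM scaling, robust dispersions and the quasi-likelihood F test, two-sided, Benjamini-Hochberg adjusted over all of them, without covariates. CPM uses TMM-scaled library sizes, at which 1 count is 0.03 to 0.0507 CPM. Member counts ran from 88 to 14808 per library. The fit was tested on simulated data.

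Alternatives were RLE scaling, no low-count filter, DESeq2 1.42.0, limma 3.58.1 on log2 of FPKM plus 1 or 0.1 (FPKM of at least 0.5 in 3 libraries), the replicate number as a block, removal of the length trend (loess, span 0.3), leaving out each library, and leaving out si-NC 5 and si-NC 6 together. In that last fit the lone control is assumed to vary like the si-NORAD libraries, so only effect sizes are given. DESeq2 gave no adjusted p for CCNE2.

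Values by library are given for the member of each role with the highest FPKM and with the largest change, for members with an unadjusted p under 0.05 and for members called by DESeq2. GINS4, RFC1 and TIMELESS were added once their values had been seen. Of the further lists the 2 genes with the lowest p are named. GENCODE 29 gave overlaps and pseudogenes. RefSeq promoters matched 47 members by symbol. A planned search of protein sequences was not run. A search of transcript sequences is not reported here.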

Additional observations from a re-analysis of the deposited data

How the results depend on the processing

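Of 54 members, 34 kept their sign in the primary fit and in the 14 alternatives, and 20 turned in at least 1. Called members numbered 0 in edgeR with RLE scaling, in limma on FPKM, with the length trend removed and with the replicate block. Over all tested genes those fits called 1, 3 (in each limma fit), 5 and 2. Called members numbered 9 without the low-count filter and 2 with DESeq2. Leaving out 1 library gave 0 to 28 called members, where 28 came without si-NC 4, with 43 to 46 members below 0 and a median log2 fold change of -0.17 to -0.10. On FPKM, 37 of 54 members were below 0 and the medians were -0.04 and -0.05. For the 120 other pathway genes the calls were 13 without the low-count filter (10.8%, against 12.3% of genes passing the filter), 2 with DESeq2 and 0 to 49 when 1 library was left out. The 49 came without si-NC 4 (40.8%, against 39.3% of all genes). Leaving out 1 library gave values with 80 to 84 below 0 and medians of -0.09 to -0.07. Their median was -0.02 in both fits on FPKM and -0.05 with si-NC 4 as sole control. Among the 24 members chosen by the rule for named genes, signs that turned were RFC4 (0.02), POLD2 (0.05) and E2F1 (0.03) with si-NC 4 as sole control, POLE (-0.03) with the length trend removed, and UHRF1 (0.03) in both fits on FPKM. The cause was not tested. Library numbers showed no pairing: deviations of same-numbered libraries correlated at -0.029, -0.02 and -0.065, and 0 of 6 libraries correlated best with their own number. With 3 libraries per group these values cannot settle whether the samples were paired. The replicate block left 0 members and 0 other pathway genes called.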

Other observations

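Ratios between partners of a complex or pathway, taken in FPKM within each library and chosen after the values were seen, do not depend on library scaling. Of 15 such ratios 6 did not overlap between groups, each lower in si-NORAD. The other 9 overlapped, among them MCM7 to MCM4, RPA2 to RPA1 and POLD2 to POLD1. No share over other gene pairs was taken, so this count has no background to be set against. The trend over gene length described above was not removed from these ratios. The ratio of POLA2 to POLA1, accessory to catalytic subunit of polymerase alpha, was 0.311, 0.438 and 0.602 for the controls, in the order 4, 5, 6, against 0.305, 0.293 and 0.247 for si-NORAD. Its groups did not overlap, and si-NC 4 lay beside the si-NORAD libraries. The ratio of POLE2 to POLE gave 0.699, 1.02 and 1.07 in si-NC and 0.643, 0.618 and 0.707 in si-NORAD, with si-NC 4 inside the si-NORAD range. For RPA3 to RPA1 the values were 0.48, 0.65 and 0.738 against 0.457, 0.467 and 0.446. CLSPN to TIMELESS ran the opposite way, at 0.191, 0.142 and 0.113 against 0.194, 0.177 and 0.192. In these 4 ratios controls 5 and 6 stood apart from the other 4 libraries. For RRM2 to RRM1, given above, si-NC 4 (0.336) lay between the other controls and the si-NORAD libraries.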
